A study of Mus musculus with 6 samples.

Results

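The genes described here encode the enzymes and transporters that take up glucose, break it down to pyruvate and lactate, and burn pyruvate in the tricarboxylic acid (TCA) cycle. The set was a list of 41 gene symbols, each read from the brightest of its probe sets (by the mean over all arrays) that the platform annotation gives a single symbol. By that rule 38 of the 41 were measured, among 18193 genes in all, while Gpi1, Gapdh and Eno1 had no such probe set and were not tested here. The list holds 2 glucose transporters, 10 enzymes of the preparatory steps of glycolysis, 5 of its payoff steps, 4 genes of lactate handling, 4 pyruvate dehydrogenase kinases, 4 subunits of the pyruvate dehydrogenase complex and 12 TCA cycle genes.

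Expression was profiled on Affymetrix mouse arrays in bone marrow cells sorted as Lin-Sca1+CD150+CD48+, which the study calls committed progenitors. The dKO mice carried MxCre, a Cre transgene under an interferon-responsive promoter, together with floxed c-myc and N-myc alleles, and the control mice carried the floxed alleles without MxCre. At 8 weeks of age, mice of both groups (mixed background) were injected with pI-pC, an interferon inducer, on 2 days, the second injection 3 days before marrow collection. Each of the 3 dKO arrays held RNA pooled from 3 mice and each of the 3 control arrays RNA pooled from 2 mice. MxCre was present in the dKO mice only, so the transgene cannot be told apart from the loss of the 2 genes, and the tissue label of control pool 1 names long-term stem cells although its gate is that of the other pools.

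Glycolysis splits glucose into pyruvate in the cytosol and yields a little ATP and the precursors of nucleotides, serine and lipids. Pyruvate is then either reduced to lactate and exported, or carried into mitochondria, where the pyruvate dehydrogenase complex turns it into acetyl-CoA for the TCA cycle. Pyruvate dehydrogenase kinases switch that complex off by phosphorylation. MYC proteins are known to bind and activate many glycolytic genes in proliferating cells, and quiescent blood stem cells are known to lean on glycolysis with pyruvate dehydrogenase held in check by its kinases.

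Of the targeted genes, Myc was lower in every dKO pool, and Mycn was so on 1 of its 3 probe sets. Myc stood at 7.99, 7.87 and 7.44 in the dKO pools and at 10.79, 10.95 and 10.47 in the control pools (deposited log2 values). The brightest Mycn probe set overlapped between the groups and did not pass (-0.83, limma, adjusted p = 0.161 over all named probe sets). The second stood between 3.28 and 4.47 in the dKO pools and between 8.93 and 9.57 in the control pools. The dimmest was slightly higher in the dKO pools. Of the gate genes that were measured, Cd48 stood between 11.27 and 11.69 in dKO and between 11.09 and 11.32 in control, and Slamf1, the gene of CD150, between 8.40 and 9.58 in dKO and between 7.74 and 8.74 in control; neither passed the test. Xist, a transcript of female cells, stood at 10.50 on array dKO 1 and 9.10 on control 1, against 5.03 to 5.86 on the others. The interquartile range of array dKO 3 was 3.04, against 3.33 to 3.47 on the other 5 arrays.

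Of the 38 measured genes, 3 rose and 5 fell in dKO (limma, adjusted p under 0.05). Over all genes 5.97% passed that test, 3.12% upwards and 2.85% downwards, and among genes brighter than the median gene, where 36 of these 38 lie, 9.04% passed. The genes that rose were Slc2a3, Pdk3 and Pdk4, and those that fell were Hk2, Slc16a1, Pdk1, Suclg2 and Fh1. The median log2 fold change (dKO minus control) was -0.17 over the 38 genes, 0.05 over all genes and -0.009 over genes brighter than the median gene. The count of 8 was 5 without dKO 1, 5 without dKO 2, 5 without control 1, 4 without control 2 and 4 without control 3, and Slc2a3, Hk2 and Pdk1 passed with every single array left out.

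For 21 of the 38 genes the 3 dKO arrays did not overlap the 3 control arrays, 7 of them higher and 14 lower in dKO. Over all genes 23.4% were separated in this way, 12.7% upwards and 10.7% downwards, and among genes brighter than the median gene 31.8% were. A 95% interval that lay wholly within a 1.5-fold change either way was found for 10 genes (Pfkl, Pfkp, Pgk1, Pgam1, Pdhb, Cs, Ogdh, Sucla2, Mdh1 and Mdh2), and 25 of the 38 had an interval within a 2-fold change. These intervals are those of the brightest probe sets. Other probe sets of some of these genes reached further, such as the second of Pdhb (up to 0.83 on the log2 scale). Changes of at least 2-fold were seen in 4 genes, Slc2a3, Pdk1, Slc16a1 and Hk2, and in 5.22% of all genes. The median SD between pools was 0.21 in dKO and 0.17 in control for these genes, against 0.26 in dKO and 0.18 in control over all genes.

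**Figure D1:**
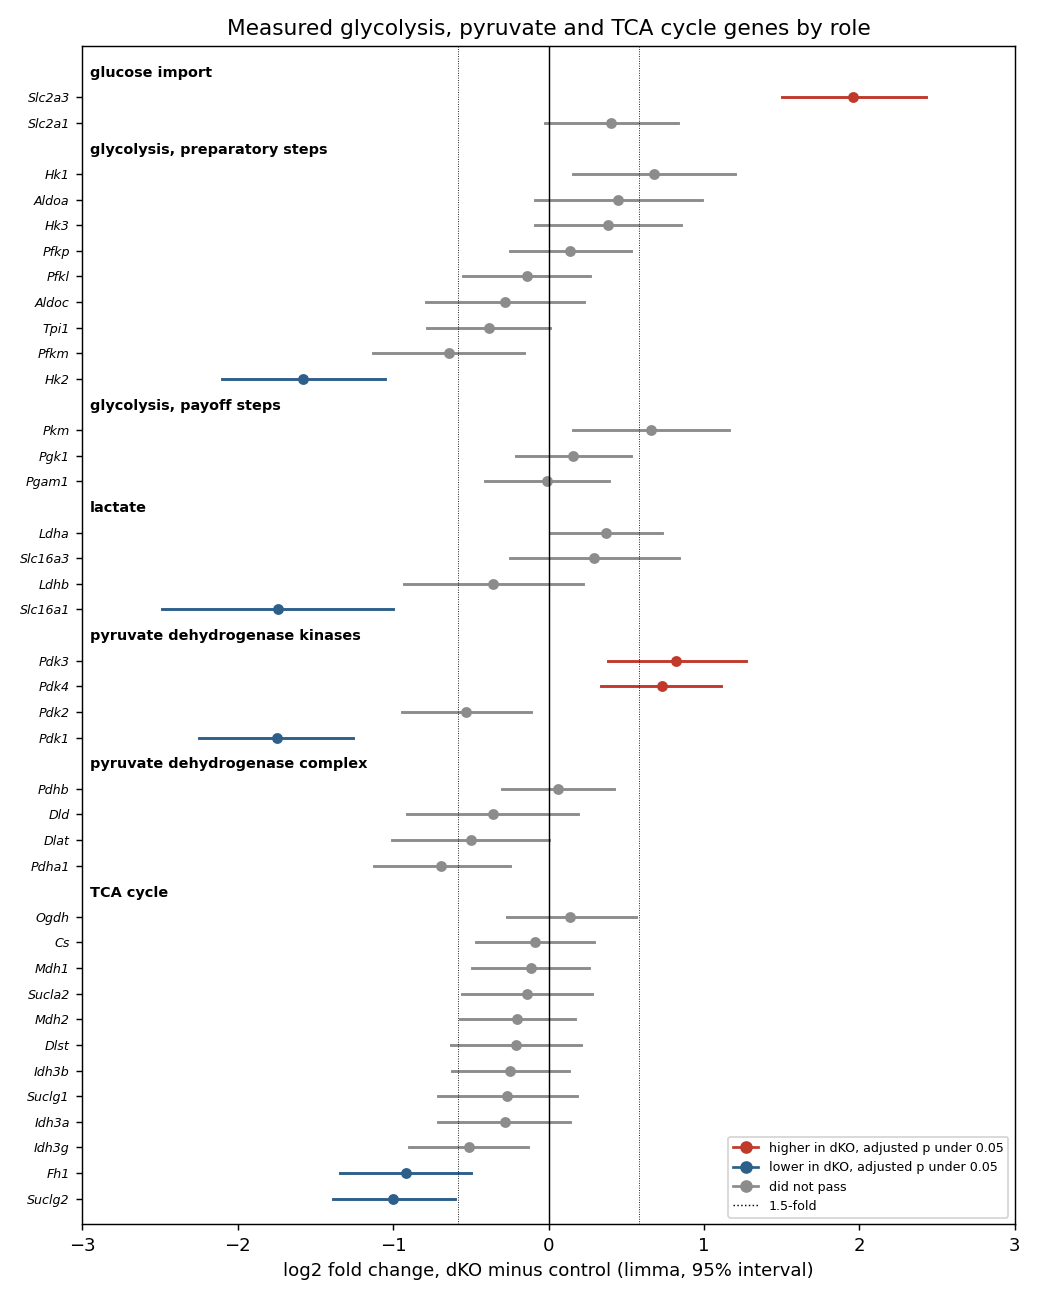
Log2 fold change (dKO minus control, x axis) of the 38 measured genes, grouped by role down the page, with the 95% interval of the limma fit as a bar. Red marks the 3 genes that rose, blue the 5 that fell and grey those that did not pass; dotted lines stand at 1.5-fold. Transporters and kinases reach from -1.75 to 1.96, and 11 of the 12 TCA cycle genes lie left of 0.

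Glucose enters blood cells through facilitative transporters, of which GLUT1 (Slc2a1) is the widespread form and GLUT3 (Slc2a3) a high-affinity form of neurons, platelets and white blood cells. Slc2a3 stood at 11.32, 11.74 and 11.52 in dKO pools 1 to 3 and at 9.89, 9.37 and 9.42 in control pools 1 to 3. Every dKO pool was higher than every control pool by a wide gap. Slc2a3 rose by 1.96 ± 0.21 (SE), or 3.9-fold (limma, adjusted p = 0.000933), and its 4 probe sets gave log2 fold changes of 1.95 to 2.43. Slc2a1 stood at 9.39, 9.43 and 9.38 in the dKO pools and at 9.29, 8.97 and 8.72 in the control pools. Its groups did not overlap either, but the dKO values lay close above control pool 1, and the change of 0.40 ± 0.19 did not pass (adjusted p = 0.305).

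Markers of other cell types moved beside Slc2a3 in these bulk samples, where fewer cells of a type and less RNA per cell cannot be told apart. Of 16 measured megakaryocyte and platelet genes 8 rose and 0 fell, and their summed linear signal was 12788 to 14868 in dKO and 4482 to 4624 in control. Of 15 T and NK cell genes 8 rose and 0 fell, with sums of 2973 to 4228 in dKO and 2149 to 2659 in control, and 5 rose without control 3. Mast cell and basophil markers gave 5 higher and 0 lower of 11, with sums of 5681 to 8128 in dKO and 2368 to 3154 in control. Granulocyte and monocyte genes lay the other way, with 1 of 18 higher and 4 lower and sums of 2872 to 6991 in dKO and 10314 to 15837 in control, as did B cell and lymphoid progenitor genes, with 0 of 17 higher and 6 lower and sums of 1589 to 2362 in dKO and 4410 to 6498 in control. Of 14 plasmacytoid and dendritic cell genes 3 fell and 0 rose, with sums of 3014 to 3970 in dKO and 5374 to 6532 in control, and 5 fell without dKO 3. Without dKO 1, dKO 2, control 2 or control 3 the number of fallen lymphoid genes was 4. The Lin- part of the gate removes cells that carry lineage antigens. Of 6 measured genes of such antigens 0 passed by limma (1, Cd3e, had an unadjusted p under 0.05). Their sums were 1977 to 2807 in dKO and 2193 to 2588 in control. These sums mostly follow Ptprc (means of 11.04 in dKO and 11.05 in control), with Cd3e (7.40 and 6.43) the next brightest. The sums cannot show whether cells with any of these antigens remained. Array values have no true zero, so none of these markers can be read as absent. The part of these cell types in the changes of glycolytic, pyruvate and TCA cycle genes was not tested.

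Hexokinases trap glucose as glucose 6-phosphate; Hk1 is the common form, Hk2 the form known to be induced by growth signals, insulin and MYC, and Hk3 a form of myeloid cells. Hk2 stood at 6.58, 6.61 and 7.22 in the dKO pools and at 8.07, 8.62 and 8.45 in the control pools. All dKO values lay below all control values, with dKO 3 nearest to them. Hk2 fell by 1.58 on the log2 scale (SE 0.23), or 2.98-fold (limma, adjusted p = 0.00468), and adjusted p reached 0.0277 at most with an array left out. Hk1 stood at 9.57, 9.88 and 9.60 in the dKO pools and at 9.32, 8.53 and 9.16 in the control pools. Those groups did not overlap, yet control 2 was far below the other controls and the change of 0.68 ± 0.23 did not pass (adjusted p = 0.145). Hk3, with a change of 0.38 ± 0.21, had overlapping groups.

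The next enzymes convert glucose 6-phosphate to triose phosphates, with phosphofructokinase as the main control point. Its muscle-type subunit gene Pfkm stood at 6.79, 7.47 and 7.39 in the dKO pools and at 7.75, 7.81 and 8.02 in the control pools. The dKO values were all lower, dKO 1 the lowest, but the change of -0.64 ± 0.22 did not pass (adjusted p = 0.137, or 0.0331 with array weights). The liver-type and platelet-type subunit genes Pfkl (-0.14) and Pfkp (0.14) had overlapping groups. Of the aldolases, Aldoa changed by 0.45 ± 0.24 and Aldoc by -0.28 ± 0.23, both with overlapping groups on the brightest probe set. The Aldoa probe sets gave 0.22 to 0.53, some with overlapping groups and others with every dKO pool higher. Tpi1, triose phosphate isomerase, stood at 9.46 to 9.89 in dKO and at 10.04 to 10.09 in control. Its change of -0.38 ± 0.18 did not pass (adjusted p = 0.291), and its other probe sets gave -0.41 and -0.73.

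The payoff steps make ATP and pyruvate, and 0 of their 3 measured genes passed by limma (1 of them, Pkm, had an unadjusted p under 0.05). Pkm, which encodes the M1 and M2 forms of pyruvate kinase, stood at 9.57, 9.98 and 10.38 in the dKO pools and at 9.32, 9.43 and 9.19 in the control pools. The dKO pools were all higher and spread more widely than the controls, and the change of 0.66 ± 0.22 had adjusted p = 0.138. Phosphoglycerate kinase (Pgk1) changed by 0.16 ± 0.17 and phosphoglycerate mutase (Pgam1) by -0.01 ± 0.18, a value whose sign turned with the 75th percentile scaling (0.01) and with equal interquartile ranges (0.12). Their 95% intervals ran from -0.21 to 0.53 for Pgk1 and from -0.41 to 0.39 for Pgam1, short of a 1.5-fold change.

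Gapdh, listed among the payoff steps, could be seen through Affymetrix control probe sets, which were left out of the test. At the 3′ end it stood at 12.39, 12.50 and 12.67 in the dKO pools and at 12.37, 12.29 and 12.44 in the control pools, so the groups overlapped. The brightest Gapdh probe set that is annotated with further symbols stood at 12.70, 12.82 and 12.94 in the dKO pools and at 12.56, 12.57 and 12.63 in the control pools, so there every dKO pool was higher. Neither was tested. The signal at the 3′ end exceeded that at the 5′ end by 2.34 to 2.73 on the log2 scale in dKO and by 2.11 to 2.32 in control, while for beta-actin the same difference was 0.09 to 0.30 in dKO and 0.17 to 0.24 in control. The Gapdh difference, a sign of RNA integrity and of amplification, thus separated the groups and that of beta-actin did not, and its part in the other results was not tested. Processed pseudogenes resemble many glycolytic transcripts, so Aldoa, Tpi1, Pgk1, Pgam1, Ldha and Ldhb are uncertain as single genes.

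Lactate dehydrogenase interconverts pyruvate and lactate, and monocarboxylate transporters carry lactate and pyruvate across the plasma membrane. Slc16a1, which encodes the broadly expressed transporter MCT1, stood at 8.14, 7.44 and 6.72 in the dKO pools and at 9.39, 8.84 and 9.30 in the control pools. All dKO values were lower, and they were the most widely spread of the 38 genes (SD 0.71, n = 3). Slc16a1 fell by 1.74 on the log2 scale (SE 0.33), or 3.35-fold (limma, adjusted p = 0.0152), and its second probe set gave -1.06. It missed the threshold without control 3 (adjusted p = 0.0571) or without dKO 2 (0.055).

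Slc16a3, which encodes the exporter MCT4 of highly glycolytic cells, changed by 0.29 ± 0.24 with overlapping groups. Ldha, the subunit that favours lactate formation, stood at 11.50, 11.34 and 11.53 in the dKO pools and at 11.09, 11.15 and 11.01 in the control pools. The dKO pools were all higher by a narrow margin, and the change of 0.37 ± 0.16 had adjusted p = 0.265. Ldhb, the other main subunit, changed by -0.36 ± 0.25 with overlapping groups, and control 1 (8.92) lay well above controls 2 (7.96) and 3 (8.26).

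MYC with its partner MAX binds the E-box CACGTG. Hypoxia-inducible factors bind sites with the core ACGTG or GCGTG, of which only ACGTG was searched here. Each CACGTG also holds ACGTG on both strands. The 250 bases before the transcription start (RefSeq, GRCm38.p6) were searched for CACGTG and ACGTG on both strands for the 39 listed genes that have such a window. CACGTG occurred in windows of 5 of these genes (12.8%), namely Ldha, Ogdh, Pdk2, Pfkm and Slc16a1, against 6.86% of all 27018 genes with a window, and ACGTG in 17 (43.6%) against 18.5% of all. Of the genes that passed the test, 7 had a window. Among them CACGTG was present in Slc16a1 only, and ACGTG in Hk2, Pdk3 and Slc16a1. Windows are shown for the 3 genes with the largest falls and for Ldha, whose first window holds CACGTG more than once though the gene did not pass, with every ACGTG (either strand) in capitals. They lie at chr3:104638414-104638663 on the plus strand (Slc16a1), chr6:82774455-82774704 on the minus strand (Hk2), chr2:71872974-71873223 on the plus strand (Pdk1, the first of 2 windows) and chr7:46845554-46845803 on the plus strand (Ldha, the first of 2 windows), each written 5′ to 3′ on the strand of the gene.
Slc16a1: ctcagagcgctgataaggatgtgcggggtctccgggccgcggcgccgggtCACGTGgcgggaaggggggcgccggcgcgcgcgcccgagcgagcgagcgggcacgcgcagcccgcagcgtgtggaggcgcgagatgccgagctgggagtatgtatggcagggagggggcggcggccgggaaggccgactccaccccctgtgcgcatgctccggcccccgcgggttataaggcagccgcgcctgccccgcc
Hk2: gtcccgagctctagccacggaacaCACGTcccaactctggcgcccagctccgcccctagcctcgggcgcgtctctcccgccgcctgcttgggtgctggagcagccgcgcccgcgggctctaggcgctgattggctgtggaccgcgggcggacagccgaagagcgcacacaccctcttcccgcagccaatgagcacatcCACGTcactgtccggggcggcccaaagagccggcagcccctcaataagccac
Pdk1: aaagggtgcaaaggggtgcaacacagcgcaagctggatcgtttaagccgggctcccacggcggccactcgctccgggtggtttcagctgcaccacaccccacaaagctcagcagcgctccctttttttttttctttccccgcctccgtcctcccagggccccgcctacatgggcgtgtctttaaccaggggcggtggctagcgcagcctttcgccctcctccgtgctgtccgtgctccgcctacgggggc
Ldha: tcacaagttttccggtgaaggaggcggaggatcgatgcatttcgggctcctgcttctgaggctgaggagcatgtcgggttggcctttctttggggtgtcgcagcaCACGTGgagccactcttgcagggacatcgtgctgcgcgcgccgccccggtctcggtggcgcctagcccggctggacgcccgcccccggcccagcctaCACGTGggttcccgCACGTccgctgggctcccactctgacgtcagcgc
In Slc16a1 the CACGTG began 200 bases before the start, and in Ldha the 2 copies began 145 and 48 bases before it. The capitals in Hk2 mark ACGTG outside an E-box, and neither window of Pdk1 held CACGTG or ACGTG. The GCGTG form, which was not searched, occurs in the windows shown for Pdk1 and Slc16a1. A match describes these letters and not a bound site, and a window without one says nothing of the factor.

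Of the 4 pyruvate dehydrogenase kinases, isoenzymes that inhibit entry of pyruvate into the TCA cycle, Pdk1 fell, Pdk3 and Pdk4 rose and Pdk2 did not pass. Pdk1, known as a target of both MYC and hypoxia-inducible factor, stood at 7.03, 7.22 and 6.60 in the dKO pools and at 8.90, 8.40 and 8.80 in the control pools. All dKO values lay more than a full log2 unit below the controls. Pdk1 fell by 1.75 on the log2 scale (SE 0.22), or 3.37-fold (limma, adjusted p = 0.00209), its 4 probe sets gave -1.97 to -1.32, and adjusted p reached 0.011 at most with an array left out. Pdk2 stood at 6.75, 6.24 and 6.61 in the dKO pools and at 7.09, 7.04 and 7.06 in the control pools. It was lower in every dKO pool, and the change of -0.53 ± 0.18 did not pass (adjusted p = 0.155).

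Pdk3, an X-linked kinase gene, stood at 8.80, 9.10 and 8.64 in the dKO pools and at 8.17, 7.77 and 8.14 in the control pools. The dKO pools were all higher, and Pdk3 rose by 0.82 ± 0.20, or 1.77-fold (limma, adjusted p = 0.0416). That call was lost without dKO 1 (adjusted p = 0.101), dKO 2 (0.11), control 1 (0.0764), control 2 (0.16) or control 3 (0.104). Pdk4, a kinase induced by fasting and fatty acids in other tissues, stood at 4.15, 4.18 and 4.18 in the dKO pools and at 3.25, 3.43 and 3.64 in the control pools. The groups did not overlap and the difference of 0.73 ± 0.17 passed (adjusted p = 0.0384), but every value lay far below the median gene (6.41), near the low end of the arrays, where RMA values give no reliable fold. The Pdk4 call was lost whichever array was dropped, dKO 1 (0.101), dKO 2 (0.0855), dKO 3 (0.0587), control 1 (0.149), control 2 (0.131) or control 3 (0.0733). Both genes have a single probe set, and adjusted over all named probe sets instead of genes their p was 0.0562 for Pdk3 and 0.0523 for Pdk4.

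**Figure D2:**
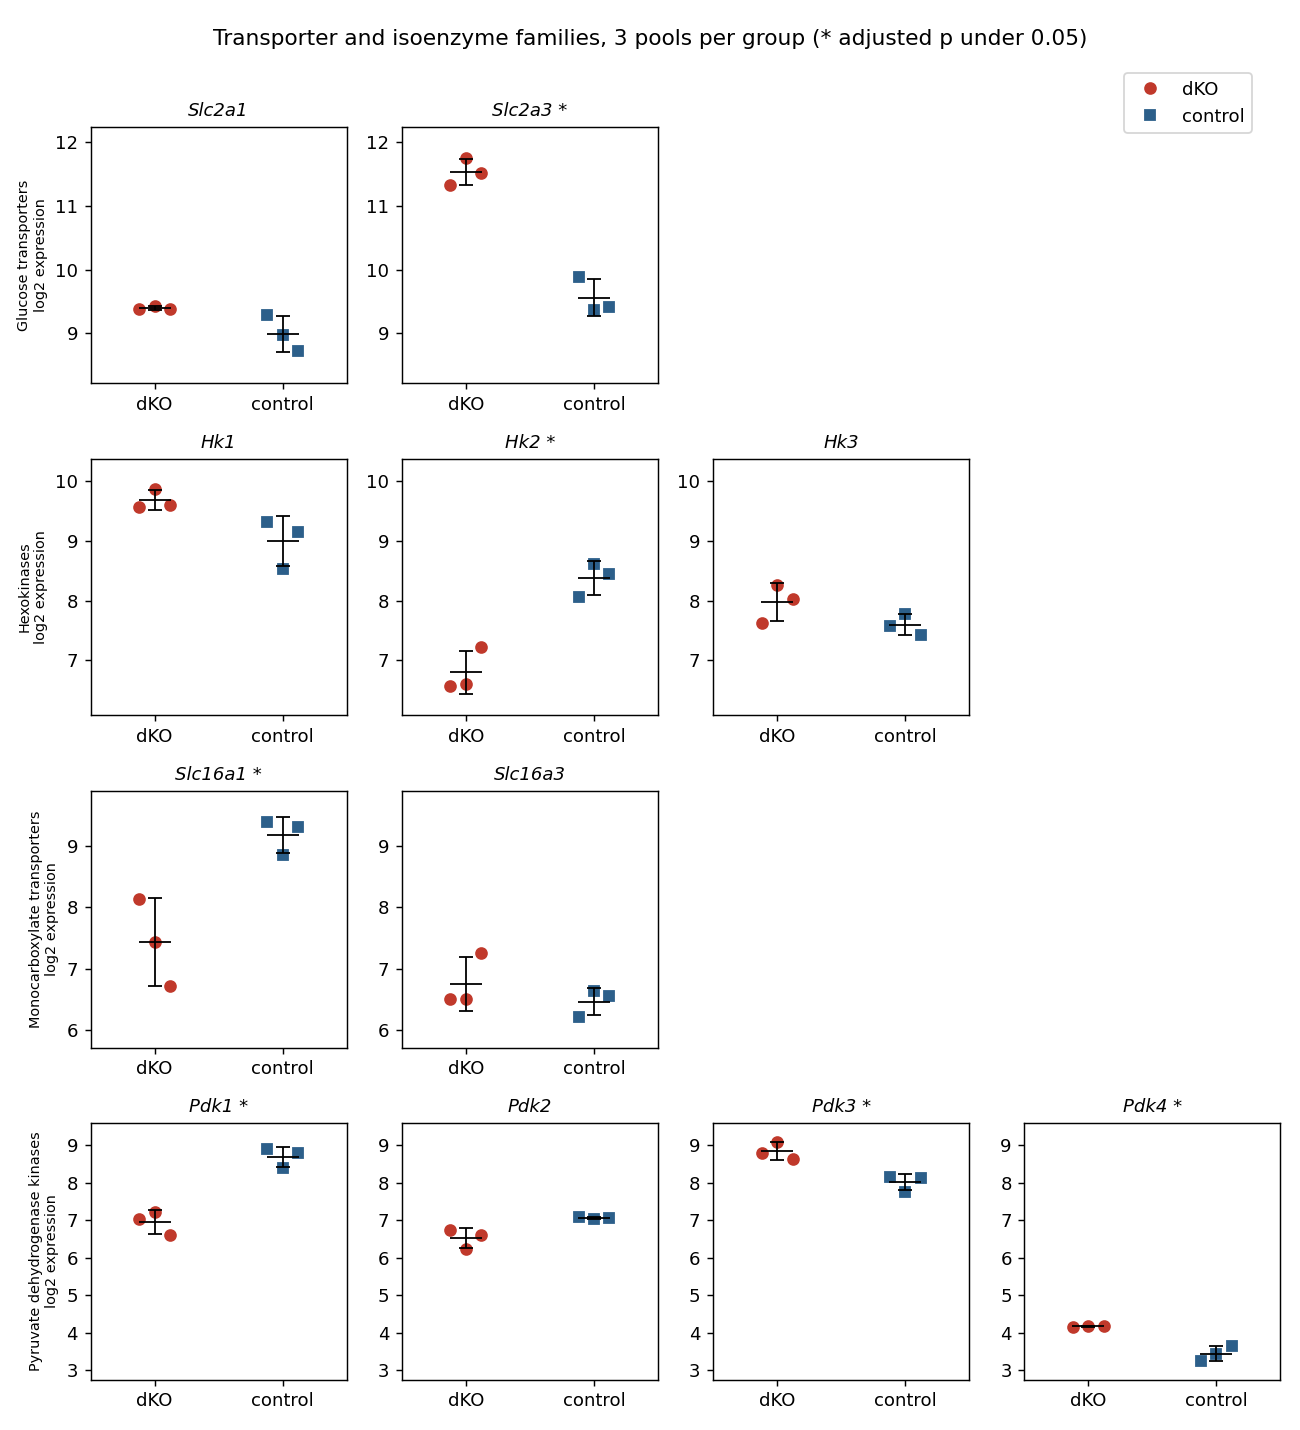
Log2 expression (y axis, as deposited) of the glucose transporters, hexokinases, monocarboxylate transporters and pyruvate dehydrogenase kinases in each dKO pool (red circles) and control pool (blue squares), with the mean and SD of 3 as bars. Levels of different genes are not comparable because probe sets differ in affinity. Within each family at least 1 gene passed the test (asterisk) and at least 1 did not, and among the kinases Pdk1 lies lower and Pdk3 and Pdk4 lie higher in dKO.

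Of the 4 subunits of the pyruvate dehydrogenase complex 0 passed by limma, and 1, Pdha1, had an unadjusted p under 0.05. Pdha1, the X-linked gene of the E1 alpha subunit on which the kinases act, stood at 8.97, 9.20 and 8.80 in the dKO pools and at 9.45, 9.93 and 9.66 in the control pools. All dKO pools were lower, and the change of -0.69 ± 0.19, or 1.61-fold, had adjusted p = 0.0785. Pdha1 did pass with trended, robust moderation (0.0415), with array weights (0.0443) and among genes above the median level (0.0438). Its second probe set had overlapping groups and gave -0.34 (limma, adjusted p = 0.419 over all named probe sets). Dlat, the acetyltransferase core, stood at 8.44, 8.10 and 7.59 in the dKO pools and at 8.61, 8.50 and 8.54 in the control pools. The dKO values were all lower and dKO 3 the lowest, with a change of -0.50 ± 0.23 and adjusted p = 0.278. The E3 gene Dld (-0.36 ± 0.24) and the E1 beta gene Pdhb (0.06 ± 0.16) had overlapping groups. On the dimmer second probe set of Pdhb every dKO pool was higher (0.42), without passing (limma, adjusted p = 0.291 over all named probe sets). The median over the 4 subunits was -0.43, and it was -0.21 without dKO 3.

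Of the 12 TCA cycle genes 2 fell and 0 rose, and 11 had a log2 fold change below 0, although scaling the arrays to equal interquartile ranges turned Cs and Mdh1 to 0.03 each and averaging each gene's probe sets turned Sucla2 to 0.10. Over all genes 7712 of 18193 had a log2 fold change below 0, and genes brighter than the median gene had a median of -0.009. Suclg2, the beta subunit of the GTP-forming succinyl-CoA ligase, stood at 7.41, 7.70 and 7.54 in the dKO pools and at 8.51, 8.73 and 8.39 in the control pools. The gap between the groups was wider than the spread within either. Suclg2 fell by 1.0 on the log2 scale (SE 0.18), or 1.99-fold (limma, adjusted p = 0.0111), its second probe set gave -1.16, and the call was lost without control 2 (adjusted p = 0.0584). The ADP-forming partner Sucla2 (-0.14 ± 0.19) and the shared alpha subunit Suclg1 (-0.27 ± 0.20) had overlapping groups; whether they differed from Suclg2 was not tested.

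Fh1, fumarase, stood at 9.0, 9.47 and 9.31 in the dKO pools and at 10.22, 10.30 and 10.03 in the control pools. All dKO pools were lower, dKO 1 most. Fh1 fell by 0.92 on the log2 scale (SE 0.19), or 1.89-fold (limma, adjusted p = 0.0201), and it missed the threshold without dKO 1 (0.0731), control 1 (0.0679), control 2 (0.0914) or control 3 (0.0524).

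By their brightest probe sets, the 3 subunit genes of the NAD-linked isocitrate dehydrogenase were lower in every dKO pool than in any control pool. For Idh3a and Idh3b there was almost no gap between the groups, and none of the 3 passed. The X-linked regulatory subunit gene Idh3g stood at 10.28, 10.25 and 10.51 in the dKO pools and at 10.83, 10.74 and 11.01 in the control pools. The groups were apart and equally tight, with a change of -0.51 ± 0.17 and adjusted p = 0.137, which became 0.041 with trended, robust moderation and 0.0469 with array weights. Idh3a, the catalytic subunit, stood at 8.79 to 9.29 in dKO and 9.30 to 9.47 in control, a change of -0.28 ± 0.19. Its probe sets gave -0.50 to 0.30. Idh3b stood at 9.41 to 9.61 in dKO and 9.62 to 9.86 in control, a change of -0.25 ± 0.17. The groups overlapped on its second probe set, which was nearly as bright (-0.24).

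Among the remaining cycle genes, mitochondrial malate dehydrogenase Mdh2 stood at 11.30 to 11.41 in dKO and at 11.46 to 11.71 in control, with a change of -0.20 ± 0.16 that did not pass. Citrate synthase (Cs, -0.09), the oxoglutarate dehydrogenase genes Ogdh (0.14) and Dlst (-0.21) and the cytosolic malate dehydrogenase Mdh1 (-0.11) had overlapping groups. From the lowest to the highest log2 fold change, the cycle genes ran from Suclg2 (-1.0) and Fh1 (-0.92), which differ by less than either standard error, through Idh3g (-0.51) to Ogdh (0.14).

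**Figure D3:**
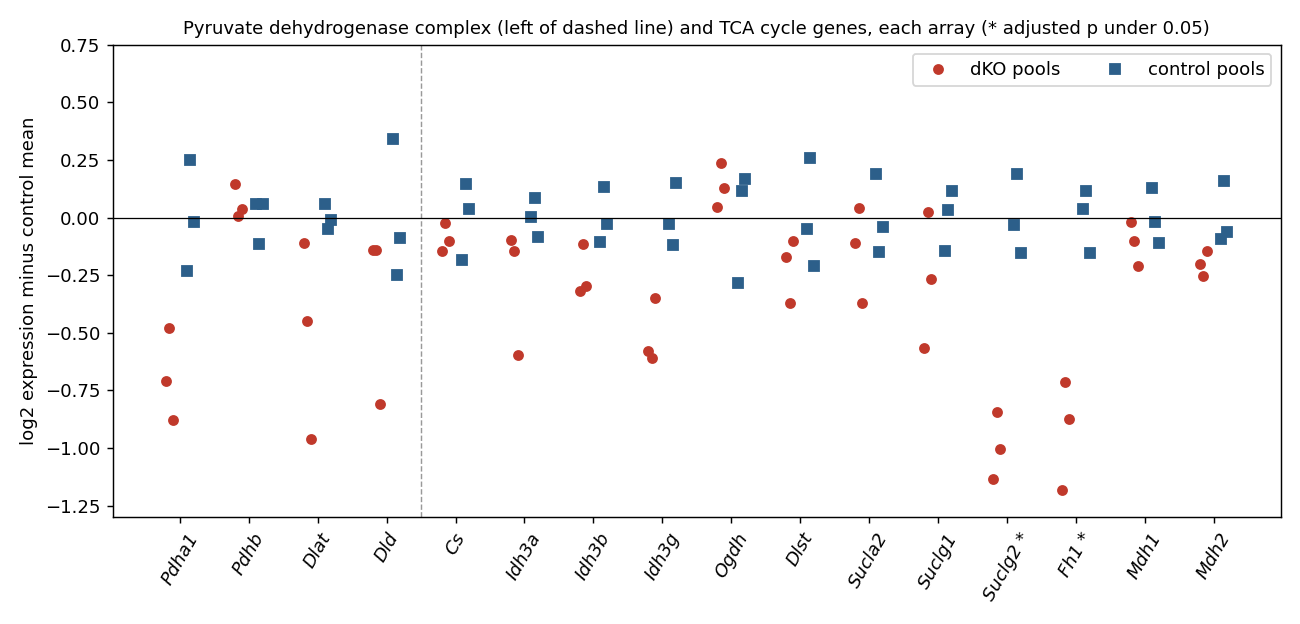
Log2 expression of each array minus the mean of the 3 control arrays (y axis) for the pyruvate dehydrogenase complex (left of the dashed line) and the TCA cycle genes, with dKO pools as red circles and control pools as blue squares. Suclg2 and Fh1 (asterisks, adjusted p under 0.05) show all dKO pools well below all control pools, and Ogdh is the only cycle gene whose dKO mean lies above its control mean.

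The calls differed in how far they rested on single arrays. With arrays dKO 1 and control 1, the pools with Xist signal, both left out, 4 of the 8 genes still passed (Slc2a3, Hk2, Pdk1 and Slc16a1), and Suclg2 had adjusted p = 0.107, Fh1 0.19, Pdk3 0.149 and Pdk4 0.294. Changes of these last 4 were -0.94, -0.77, 0.92 and 0.65 in that setting. Of the 38 genes 4 are X-linked (Pgk1, Pdk3, Pdha1 and Idh3g), and of these Pdk3 passed with all arrays and group as the single term. With the Xist level as a covariate Pdk3 changed by 0.81 and did not pass (adjusted p = 0.0613), and neither did Pdha1 (0.108) or Idh3g (0.186).

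**Figure D4:**
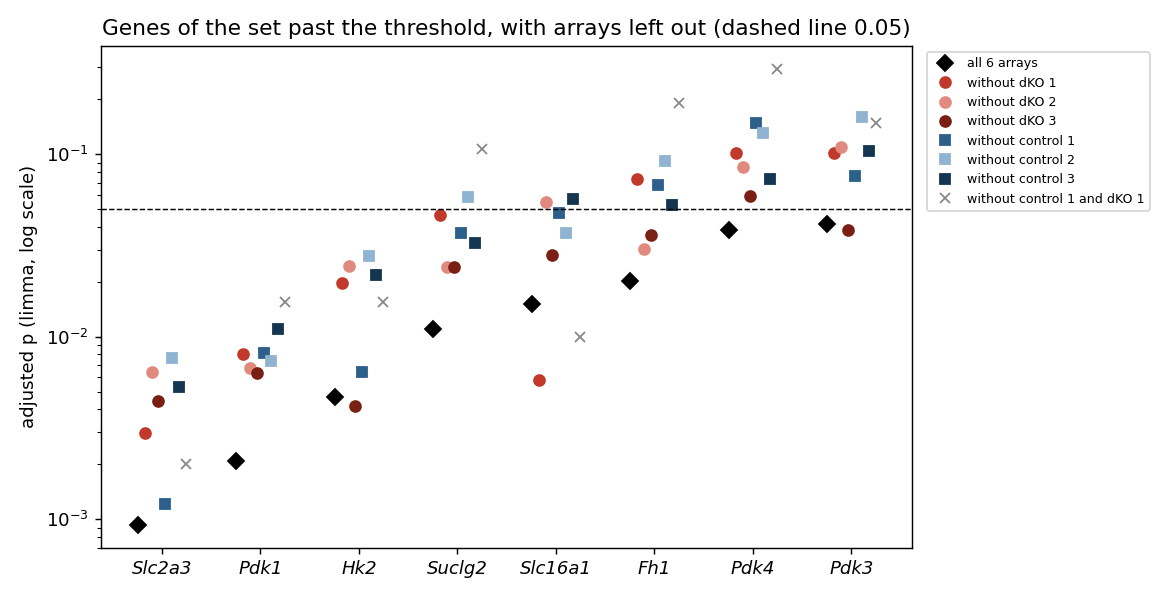
Adjusted p of the limma fit (y axis, log scale) for the 8 genes past the threshold, with all 6 arrays (black diamonds), with 1 array left out (circles for dKO, squares for control) and without dKO 1 and control 1 (crosses). Slc2a3, Pdk1 and Hk2 stay below the dashed line at 0.05 throughout, and Pdk4 crosses it whenever an array is left out.

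Genes of the same pathways outside the list were drawn from 8 textbook lists with 104 of 114 genes measured, and 6 of them rose and 6 fell, again against 5.97% of all genes. Their median log2 fold change was -0.02. The number was 5 without control 2 and 6 without control 1 or control 3.

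Of 13 further glycolytic isoenzymes and regulators 2 rose and 0 fell. Pklr, the pyruvate kinase of liver and red cells, stood at 10.13, 9.45 and 9.35 in the dKO pools and at 7.91, 7.61 and 8.85 in the control pools. The dKO pools were all higher, with control 3 nearest to them, and Pklr rose by 1.52 ± 0.33 (limma, adjusted p = 0.0283), a call lost without dKO 1 (0.0906), dKO 2 (0.0648), control 1 (0.0824) or control 2 (0.108). Of 10 erythroid genes measured beside it 2 rose and 1 (Tfrc) fell, and 0 rose without dKO 1, control 2 or control 3. Their median log2 fold change was 0.66. The groups did not overlap for 6 higher and 1 lower, against 12.7% and 10.7% of all genes. An unadjusted p under 0.05 was found for 7, Tfrc among them, against 18.2% of all genes. Sums were 8890 to 13019 in dKO and 9635 to 11529 in control, with Car2 (means of 12.19 in dKO and 12.18 in control) the brightest gene in them. Eno2, the neuronal enolase, rose by 1.42 ± 0.32 (adjusted p = 0.0304) and lost its call without any of 5 arrays, dKO 2 (0.0912), dKO 3 (0.0939), control 1 (0.0846), control 2 (0.0634) or control 3 (0.106). It stood at 5.49, 6.78 and 6.49 in the dKO pools and at 4.70, 5.13 and 4.66 in the control pools. Its control values lay well below the median gene (6.41), so the size of the fold is uncertain.

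Among 11 genes of pyruvate entry and dehydrogenase regulation 1 rose and 1 fell. Me1, the cytosolic malic enzyme that makes pyruvate and NADPH from malate, stood at 7.65, 7.53 and 6.0 in the dKO pools and at 4.59, 4.65 and 4.45 in the control pools. The controls were tight and every dKO pool was higher, dKO 3 the least. Me1 rose by 2.50 ± 0.38, or 5.65-fold (limma, adjusted p = 0.00557), and passed with each array left out. Its control values lay well below the median gene (6.41), so the size of the fold is uncertain. Pck2, the mitochondrial phosphoenolpyruvate carboxykinase, changed by -0.81 ± 0.19 (adjusted p = 0.0384) and lost its call without dKO 1 (0.053), dKO 2 (0.0994), dKO 3 (0.0766), control 1 (0.126), control 2 (0.151) or control 3 (0.0618).

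Of 18 further TCA cycle and linked genes 2 fell and 0 rose. Idh1, the cytosolic NADP-linked isocitrate dehydrogenase, stood at 8.32, 8.58 and 7.83 in the dKO pools and at 9.49, 9.59 and 9.75 in the control pools. All dKO pools were lower, and Idh1 fell by 1.37 on the log2 scale (SE 0.22), or 2.58-fold (limma, adjusted p = 0.00661), and passed with each array left out. Got2, the mitochondrial aspartate aminotransferase of the malate-aspartate shuttle, fell by 1.20 (SE 0.25, adjusted p = 0.0212), a call lost without control 1 (0.0543), control 2 (0.0883) or control 3 (0.068).

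In 3 further lists 0 genes passed by limma. At an unadjusted p under 0.05 stood 1 gene of glucose transport, 3 of lactate transport and 4 of the pentose phosphate pathway, in lists of 11, 7 and 11, against 18.2% of all genes. The smallest p among 11 further genes of glucose transport and hexose phosphorylation was that of Slc2a9, a urate and hexose transporter, with a change of -0.74 ± 0.21 and adjusted p = 0.0724. Among 7 genes of lactate and monocarboxylate transport it was that of Slc16a7, which encodes MCT2 (-0.63 ± 0.22, adjusted p = 0.164). Among 11 genes of the pentose phosphate pathway it was that of Pgls, 6-phosphogluconolactonase (-0.76 ± 0.22, adjusted p = 0.0857).

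Of 20 glucose-sensing and hypoxia regulators 2 fell and 0 rose. Ppargc1b, a coactivator of mitochondrial genes, stood at 5.20, 4.97 and 4.59 in the dKO pools and at 6.26, 6.33 and 6.51 in the control pools. The groups were well apart, and Ppargc1b fell by 1.45 on the log2 scale (SE 0.20), or 2.73-fold (limma, adjusted p = 0.00334), and passed with each array left out. Its dKO values lay well below the median gene (6.41), so the size of the fold is uncertain. Mlxip, the glucose sensor MondoA of the extended MYC network, fell by 0.85 (SE 0.18, adjusted p = 0.0276), a call lost without dKO 1 (0.0836), control 1 (0.0845), control 2 (0.112) or control 3 (0.0779).

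Of 13 hypoxia targets outside glycolysis 3 rose and 1 fell. Bhlhe40, a transcriptional repressor, stood at 8.92, 9.31 and 8.42 in the dKO pools and at 6.54, 6.79 and 5.99 in the control pools. All dKO pools were higher by a wide gap. Bhlhe40 rose by 2.44 ± 0.28, or 5.43-fold (limma, adjusted p = 0.0013), and passed with each array left out. Ndrg1, a stress-responsive gene that MYC is known to repress, rose by 0.98 ± 0.21 (adjusted p = 0.0285) and Ddit4, an inhibitor of mTORC1 signalling, by 1.0 ± 0.23 (adjusted p = 0.0317). The Ndrg1 call was lost without dKO 2 (0.0866), dKO 3 (0.0661), control 1 (0.0975) or control 2 (0.107), and the Ddit4 call without dKO 1 (0.106), dKO 2 (0.0836), control 1 (0.105), control 2 (0.0918) or control 3 (0.0531). Mxi1, an antagonist of MYC, fell by 1.26 (SE 0.24, adjusted p = 0.0147), a call lost without control 1 (0.0504) or control 3 (0.0595).

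Cell cycle genes gave a measure of proliferation beside these values. Of 23 S phase genes 0 rose and 0 fell by limma, 5 had an unadjusted p under 0.05, and their summed signal was 33745 to 35133 in dKO and 32852 to 35786 in control. The 20 genes of G2 and mitosis held 2 that fell and 0 that rose, with sums of 19885 to 23170 in dKO and 21851 to 24965 in control. Their median log2 fold change was -0.20, and 5 had an unadjusted p under 0.05, against 18.2% of all genes. The groups did not overlap for 8 lower and 0 higher, against 10.7% and 12.7% of all genes. The 2 fallen genes were Kif23 and Racgap1, and 0 fell without dKO 1, dKO 2, control 1 or control 2 and 1 without control 3. The part of proliferation in the changes of glycolytic and TCA cycle genes was not tested.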

How the data were processed

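The authors deposited 1 table of log2 expression values. Per the submitters' processing notes they used RMA, a method of background correction, quantile normalization and probe summary, in a version not given in the sources. Per the labels' protocols, RNA was amplified in 2 rounds and labelled with biotin. RMA compresses differences of dim probe sets, and 6 arrays limit the precision.

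Of 45101 probe sets 34945 had a single symbol, and 34741 of these were matched to RefSeq (GRCm38.p6) to update names. Groups came from the sample titles. The fit used limma 3.58.1 in R 4.3.3 (lmFit, eBayes) with group as the single term. Two-sided p-values were adjusted by Benjamini-Hochberg across the 18193 genes, with 0.05 as the threshold. SDs are over 3 pools, and standard errors and intervals are those of the fit. The steps were tested on simulated data. Figures used matplotlib 3.10.9.

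The genes, lists and alternatives were chosen with earlier results of these data known, so no list test was run. Full values are given for genes past the threshold and for those with separated groups and a log2 fold change of at least 0.58 either way; a few others with separated groups were added after their values were seen. Of other genes, those past the threshold or with the smallest p of a pathway list are named. Same-numbered dKO and control pools hardly deviated together (correlations of 0.06, 0 and 0.02), so the numbers were not taken as pairs. Among the control pools, control 1 did correlate best with dKO 1, and both had Xist signal.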

Additional observations from a re-analysis of the deposited data

How the results depend on the processing

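The count of 8 genes past the threshold was 4 to 7 with 1 array left out, 4 without dKO 1 and control 1, 3 at an adjusted p of 0.01 and 0 in limma's fit without moderated variances, where the 8 genes had adjusted p from 0.0676 to 0.207. The same settings gave 572 to 1081, 578, 437 and 70 calls among all genes, against 1086 with all arrays, and 5 to 11, 6, 4 and 0 among the other pathway genes, against 12. Array weights gave 1697 calls among all genes and 11 among the 38, adding Pfkm (adjusted p = 0.0331), Idh3g (0.0469) and Pdha1 (0.0443). Trended, robust moderation gave 10, adding Idh3g (0.041) and Pdha1 (0.0415), and a fit on genes above the median level added Pdha1 (0.0438). With the replicate block 6 of the 38 passed, without Pdk3 (adjusted p = 0.0848) and Pdk4 (0.0707), and 999 of all genes. The sample numbers are not shown to pair the pools.

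The median log2 fold change of the 38 genes was -0.09 with each gene's probe sets averaged and -0.09 with equal interquartile ranges, a scaling chosen after seeing the data, and ran from -0.18 to -0.12 with 1 array left out. Signs turned for 6 genes near 0. Pgam1 was 0.01 with 75th percentile scaling, 0.05 without control 2, 0.11 without dKO 1, 0.10 without dKO 1 and control 1, 0.02 with Xist as a covariate and 0.12 with equal interquartile ranges. Cs and Mdh1 were 0.03 under that scaling, Sucla2 0.10 with probe sets averaged, Aldoc 0.06 with probe sets of shared sequence removed, and Ogdh ran from -0.0017 to 0.22 with 1 array left out. The cause was not tested. In that removal Suclg2 and Fh1 had no probe set left. Median centring (adjusted p = 0.0545) and the Xist covariate (0.0613) lost Pdk3, and repeated quantile normalization (0.074) and equal interquartile ranges (0.0977) lost Pdk4. Genes near background, such as Pdk4, limit what these arrays resolve.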
